A study of Mus musculus with 6 samples.

Results

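The genes described here are 10 regulators of the step from G1 into S phase, namely the CDK inhibitors Cdkn1a, Cdkn1b, Cdkn2a, Cdkn2b, Cdkn2c and Cdkn2d, the retinoblastoma proteins Rb1, Rbl1 and Rbl2, and cyclin D1, Ccnd1. They were chosen by gene symbol among the 24421 symbols of the count table, and all 10 passed the filter on low counts. RNA was sequenced from cochlear explants of wild-type (WT) mice at postnatal day 2, kept in culture for 12 h and then for 6 h with neomycin at 1 mM, an aminoglycoside that kills hair cells (HCs), followed by 5 days with the thymidine analog EdU at 10 μM. Each group had 3 samples, and 6 to 8 cochleae were pooled for each. The sample labels give the same neomycin text for both groups, and control is read here as culture without the drug. The modiolus, the tectorial membrane and the anlage of the stria vascularis had been taken off, so each sample was a mixture of HCs, supporting cells (SCs), mesenchyme and other cells. In such bulk samples fewer cells of a type and less RNA per cell cannot be told apart. The total counts lay between 50471116 and 66068108 per sample.

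Cyclin D1 joins CDK4 or CDK6, and the complex phosphorylates the retinoblastoma proteins. In their unphosphorylated form these proteins hold E2F transcription factors in check, so that genes for DNA synthesis stay off. CDK inhibitors act upstream of this step: the INK4 family, encoded by Cdkn2a, Cdkn2b, Cdkn2c and Cdkn2d, binds CDK4 and CDK6, while the CIP/KIP family, encoded by Cdkn1a, Cdkn1b and Cdkn1c, binds cyclin and CDK complexes more widely. In the organ of Corti, p27Kip1 from Cdkn1b marks SCs and keeps them out of the cell cycle, p19Ink4d from Cdkn2d keeps HCs postmitotic, and RB1 is needed for HCs to stay in that state.

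After neomycin, the transcripts of Ccnd1, Rbl2 and Cdkn2d fell, and no member rose. The falls were small. On the scale of the fitted fold change, Ccnd1 was 24.2% lower, Rbl2 19.2% lower and Cdkn2d 16.6% lower. The other 7 members, among them the SC inhibitor Cdkn1b and the stress-responsive inhibitor Cdkn1a, did not pass the test. The test was edgeR's quasi-likelihood test with Benjamini-Hochberg adjustment over the 15988 genes tested, and a gene passed at an adjusted p-value under 0.05. By that rule 3 of the 10 members passed, and 29.0% of all genes tested did. Of all genes 16.1% were lower and 12.9% were higher, so the share of members that passed lay near that of the table as a whole. Leaving out control replicate 2 left 0 members past the test, and leaving out neomycin replicate 2 or 3 left 1, Ccnd1. Of all genes, 2567 of 16184, 2518 of 16177 and 3001 of 16221 passed in those fits. With the fold change over 1.5 that the study also asked for, edgeR, DESeq2 and limma-voom each called 0 of the 10, against 8.84% of all genes by edgeR, and edgeR also gave 0 at an unadjusted p-value under 0.05 with that fold change. The 95% interval of the fold change lay inside 1.5-fold in both directions for 8 of the 10 members, the exceptions being Cdkn2a and Ccnd1. The median log2 fold change of the members was -0.08, beside -0.00 over all genes tested. Fold changes across the table fell with exon length, with a slope of -0.54 in log2 fold change per unit of log10 length, so values corrected for length are given where they change a result.

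**Figure D1:**
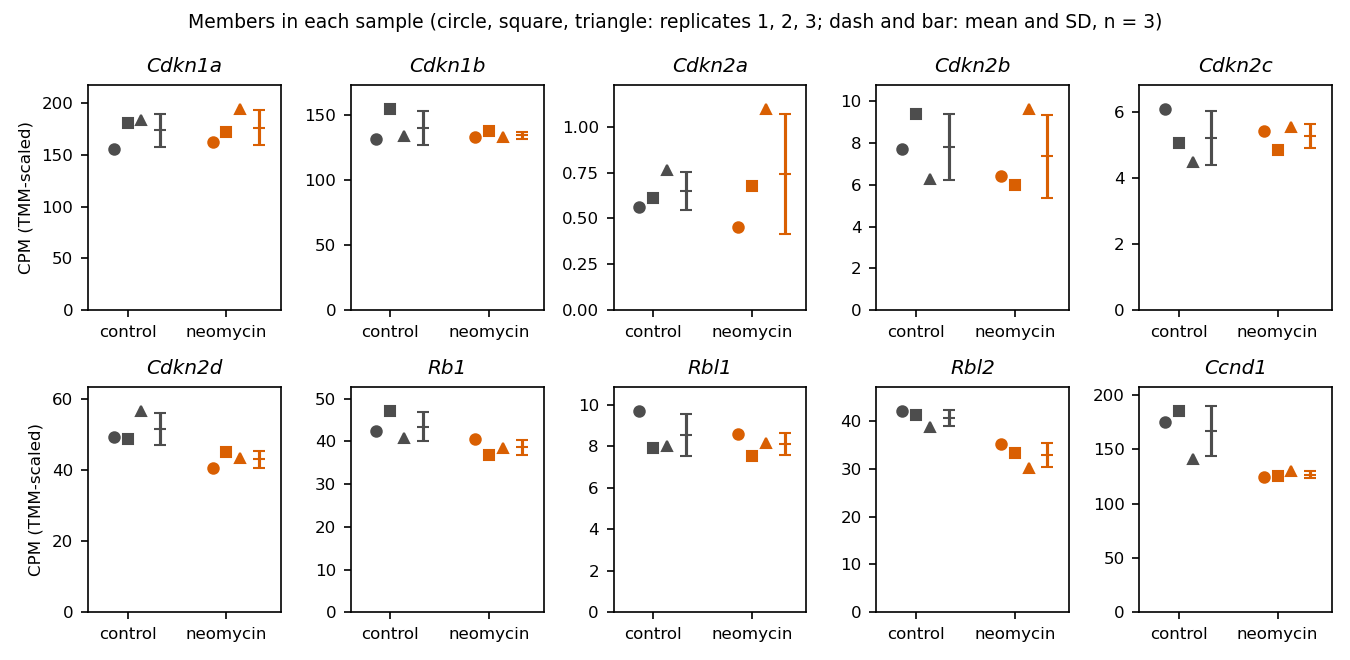
Each panel gives 1 member in CPM (reads per library, relative to its TMM-adjusted size) on an axis from 0, with gray for control and orange for neomycin. Circles, squares and triangles are replicates 1, 2 and 3, and the dash and bar are the mean and SD (n = 3); the groups lie apart for Cdkn2d, Rb1, Rbl2 and Ccnd1 and overlap for the other 6 members.

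**Figure D2:**
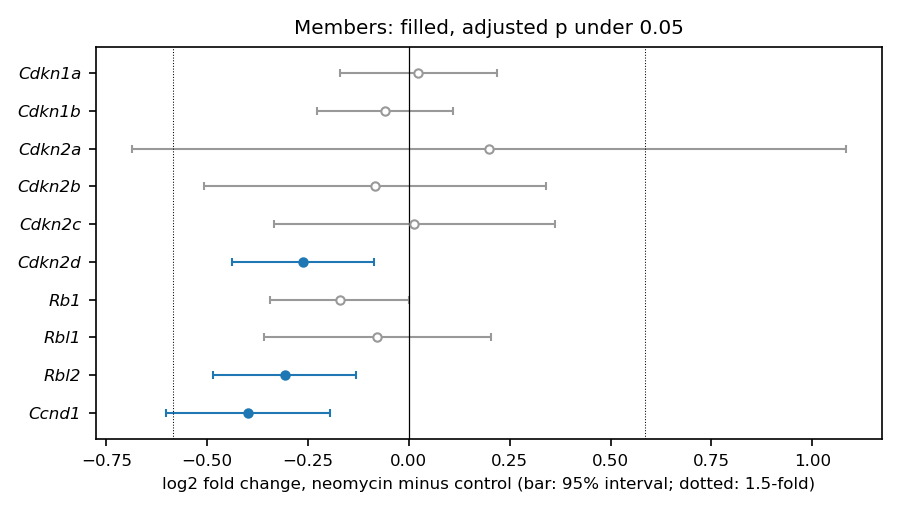
Points are log2 fold changes of neomycin against control with 95% intervals, filled where the adjusted p-value was under 0.05, and dotted lines mark 1.5-fold. Ccnd1, Rbl2 and Cdkn2d are filled and lie below 0, and the interval of Cdkn2a is the widest, from -0.69 to 1.08.

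Cdkn1a encodes p21Cip1, an inhibitor that p53 switches on after DNA damage, and it lies on chromosome 17 of mm10 from 29090976 to 29100727. Its CPM, with library sizes adjusted by TMM, in replicates 1, 2 and 3 were 156, 181 and 184 for control and 162, 173 and 195 for neomycin. The groups overlapped almost entirely. The means were 174 ± 15.6 and 177 ± 16.6 CPM (SD, n = 3), and the log2 fold change was 0.02, with a 95% interval from -0.17 to 0.22 (edgeR adjusted p = 0.868). With the correction for length it was -0.01 (edgeR adjusted p = 0.933).

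Cdkn1b encodes p27Kip1 and lies on chromosome 6 from 134920401 to 134925513. It had 132, 155 and 134 CPM in the control samples and 133, 137 and 133 CPM after neomycin. The neomycin samples were close together, and 2 of the control samples lay beside them, with control replicate 2 the highest of all 6. The log2 fold change was -0.06 with a 95% interval from -0.23 to 0.11 (edgeR adjusted p = 0.603). The neomycin level was thus between 85.4% and 108% of control by that interval. Its sign turned with the correction for length, to 0.05 (edgeR adjusted p = 0.644).

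Of the INK4 genes, Cdkn2d passed the test. It lies on chromosome 9 from 21288410 to 21291407. Its values were 49.5, 48.8 and 56.8 CPM in control and 40.6, 45.1 and 43.6 CPM after neomycin, so that every neomycin sample lay below every control sample. The means were 51.7 ± 4.42 and 43.1 ± 2.32 CPM (SD, n = 3), with a log2 fold change of -0.26 (SE 0.08, edgeR adjusted p = 0.0300). Corrected for length the fall was larger, with a log2 fold change of -0.47 (edgeR adjusted p = 0.000237). The call rested on few samples: the edgeR adjusted p rose to 0.0509 and 0.0944 when control replicate 2 or 3 was left out, and to 0.0884, 0.0645 and 0.0707 when neomycin replicate 1, 2 or 3 was.

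The other INK4 genes were scarce and varied between samples. Cdkn2b, which encodes p15Ink4b and lies on chromosome 4 from 89306299 to 89311039, had 7.72, 9.41 and 6.26 CPM in control and 6.44, 6.00 and 9.64 CPM after neomycin. Neomycin replicate 3 was the highest of the 6 and neomycin replicate 2 the lowest. Its log2 fold change was -0.08, with a 95% interval from -0.51 to 0.34 (edgeR adjusted p = 0.780), and -0.32 with the correction for length (edgeR adjusted p = 0.274). Cdkn2c, which encodes p18Ink4c and lies on chromosome 4 from 109660876 to 109667189, had 6.12, 5.08 and 4.48 CPM in control and 5.42, 4.86 and 5.57 CPM after neomycin. All neomycin values fell inside the control range, and the log2 fold change was 0.01, with a 95% interval from -0.33 to 0.36 (edgeR adjusted p = 0.961).

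Cdkn2a was the lowest of the members. It lies on chromosome 4 from 89274471 to 89294653 and makes p16Ink4a and, from another first exon, the p53 activator p19Arf, which a count per gene cannot separate. It had 39, 32 and 43 reads in the control libraries and 24, 40 and 59 after neomycin. Scaled to CPM, these were 0.565, 0.613 and 0.765 in control and 0.452, 0.678 and 1.10 after neomycin, so the neomycin samples spread on both sides of the control samples. The log2 fold change was 0.20 with a 95% interval from -0.69 to 1.08 (edgeR adjusted p = 0.748). That interval takes in changes of 1.5-fold in both directions.

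The 3 retinoblastoma genes all had fitted log2 fold changes below 0, and Rbl2 passed the test. Rbl2 encodes p130, which with E2F4 holds cell cycle genes silent in resting cells, and it lies on chromosome 8 from 91070057 to 91123844. It had 42.0, 41.1 and 38.7 CPM in control and 35.1, 33.3 and 30.0 CPM after neomycin. The groups did not overlap. The log2 fold change was -0.31 (SE 0.08, edgeR adjusted p = 0.0151). Corrected for length it was -0.17 and no longer passed (edgeR adjusted p = 0.0867), and leaving out control replicate 2, neomycin replicate 2 or neomycin replicate 3 gave 0.0588, 0.0542 or 0.0762. Exons of Aktip and Gm45464 on the opposite strand cover 9.17% and 11.8% of its exon bases, and Aktip had a log2 fold change of 0.08 (edgeR adjusted p = 0.410).

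Rb1, on chromosome 14 from 73183673 to 73325822, had 42.5, 47.1 and 40.7 CPM in control and 40.5, 36.8 and 38.5 CPM after neomycin. Control replicate 3 and neomycin replicate 1 nearly met, although the groups did not overlap. The log2 fold change was -0.17, with a 95% interval from -0.34 to 0.00 (edgeR adjusted p = 0.124), and -0.05 with the correction for length (edgeR adjusted p = 0.640). Exons of Rcbtb2 cover 8.11% of its exon bases on the opposite strand, and Rcbtb2 was at 80.5 CPM in control and 84.6 CPM after neomycin (log2 fold change 0.07, edgeR adjusted p = 0.456). Lpar6, which lies inside Rb1 on the opposite strand and shares 6.78% of its exon bases, rose with a log2 fold change of 0.38 (edgeR adjusted p = 0.00833).

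Rbl1 encodes p107, a retinoblastoma protein of dividing cells, and lies on chromosome 2 from 157145893 to 157204534. It had 9.71, 7.92 and 8.01 CPM in control and 8.59, 7.56 and 8.17 CPM after neomycin. The groups overlapped, with a log2 fold change of -0.08 and a 95% interval from -0.36 to 0.20 (edgeR adjusted p = 0.687). Control and neomycin values lay apart for 4 of the 10 members, Cdkn2d, Rb1, Rbl2 and Ccnd1, as they did for 43.5% of all genes tested.

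Ccnd1 had the largest fall of the members without the correction for length, and Cdkn2d had it with that correction. Ccnd1 encodes cyclin D1, the member that drives the cell cycle where the others hold it back, and it lies on chromosome 7 from 144929931 to 144939925. It had 174.5, 185 and 141 CPM in control and 124, 125 and 130.0 CPM after neomycin. The neomycin samples were tightly grouped, and control replicate 3 lay between them and the other control samples. The means were 167 ± 23.2 and 126 ± 3.06 CPM (SD, n = 3), with a log2 fold change of -0.40 (SE 0.09, edgeR adjusted p = 0.00833) and a 95% interval from -0.60 to -0.20. Corrected for length it was -0.34 (edgeR adjusted p = 0.0128). Without control replicate 2 the adjusted p was 0.0516, and without any other single sample it stayed under 0.05. Exons of Oraov1, listed in the annotation as LTO1, cover 23.4% of its exon bases on the opposite strand, and Oraov1 was at 17.5 CPM in control and 18.5 CPM after neomycin (log2 fold change 0.08, edgeR adjusted p = 0.558).

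Promoter sequences bear on these genes because E2F factors, which the retinoblastoma proteins restrain, also act on several of them. RefSeq windows of GRCm38.p6, from 250 bases before to 50 after a start, were at hand for 8 of the 10 members; those of Rb1 and Ccnd1 were not used here. The E2F letters TTTCCCGC, TTTGGCGC, TTTCGCGC and TTTGCCGC were searched on both strands, as was the cell cycle homology region, TTTGAA, which the DREAM complex of Rbl1 or Rbl2 binds. Those 8 members had 11 windows, so a count of members and a share of windows are unlike measures. The E2F letters were found in windows of 2 members, Rbl1 and Cdkn2a, beside 2.26% of all 32851 windows. The TTTGAA letters were found in those of 2 members, Rbl2 and Cdkn2b, beside 17.9% of all windows. The stretches just before the RefSeq start are shown for both E2F matches and for the inhibitor and the retinoblastoma gene that fell, with matches in capitals. That of Rbl1 is chr2:157204535-157204654 on the minus strand, that of Cdkn2a is chr4:89294620-89294739 on the minus strand, that of Rbl2 is chr8:91069837-91070056 on the plus strand, and that of Cdkn2d, without a match, is chr9:21291210-21291329 on the minus strand. RefSeq and the GENCODE annotation used for the gene coordinates differ in their starts, so that by GENCODE the whole Cdkn2d stretch and part of the Cdkn2a stretch lie inside the gene.
Rbl1: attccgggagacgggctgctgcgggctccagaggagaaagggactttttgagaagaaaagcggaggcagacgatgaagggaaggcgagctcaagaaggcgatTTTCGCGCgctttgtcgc
Cdkn2a: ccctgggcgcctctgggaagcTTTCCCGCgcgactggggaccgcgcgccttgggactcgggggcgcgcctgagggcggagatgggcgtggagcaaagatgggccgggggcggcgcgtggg
Rbl2: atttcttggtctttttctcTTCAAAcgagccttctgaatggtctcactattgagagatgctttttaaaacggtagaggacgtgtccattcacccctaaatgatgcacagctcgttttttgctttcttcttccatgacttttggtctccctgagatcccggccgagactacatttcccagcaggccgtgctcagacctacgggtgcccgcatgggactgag
Cdkn2d: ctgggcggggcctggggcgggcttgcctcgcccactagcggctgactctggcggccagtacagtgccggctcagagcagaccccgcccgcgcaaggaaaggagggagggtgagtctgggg
In Rbl1 the match begins 18 bases before the RefSeq start and in Cdkn2a 99 bases before it, in the window of the first exon farthest upstream. In Rbl2 the capitals are TTTGAA read on the other strand, 201 bases before the start. Of the members with E2F letters, neither passed the test between neomycin and control.

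To set the members beside each other, CPM were divided by exon length in kilobases, which gives RPKM. In control the highest level was that of Cdkn1a, at 64.0 ± 5.75 RPKM (SD, n = 3), followed by Ccnd1 at 44.6 ± 6.20, Cdkn2d at 35.0 ± 2.99 and Cdkn1b at 30.8 ± 2.82 RPKM. The ranges of Ccnd1 and Cdkn2d overlapped, as did those of Cdkn2d and Cdkn1b. A gap of 3.30-fold in means separated Cdkn1b from the retinoblastoma genes Rb1, at 9.34 ± 0.710 RPKM, and Rbl2, at 8.25 ± 0.348 RPKM. Cdkn2b had 5.61 ± 1.13 RPKM. Cdkn2c and Rbl1, at 1.95 ± 0.307 and 1.76 ± 0.208 RPKM, overlapped, and Cdkn2a was lowest at 0.553 ± 0.0890 RPKM. After neomycin the order was the same but for Cdkn1b and Cdkn2d, at 29.5 ± 0.580 and 29.2 ± 1.57 RPKM, which changed places and overlapped. Rbl2 and Cdkn2b, at 6.66 ± 0.521 and 5.30 ± 1.43 RPKM, also overlapped there.

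**Figure D3:**
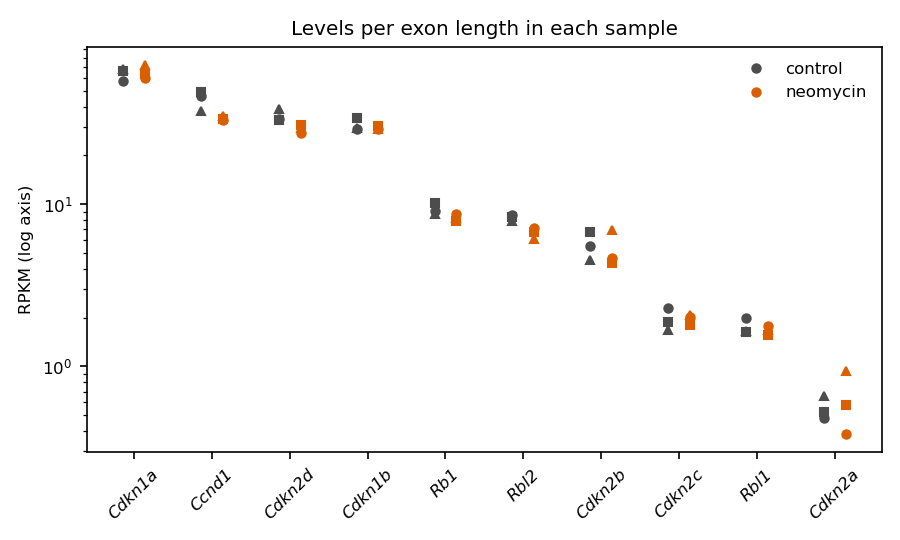
Each point is the level of a member in 1 sample in RPKM on a log axis, gray for control and orange for neomycin, with members in the order of their control means. Cdkn1a, Ccnd1, Cdkn2d and Cdkn1b form the upper set, and Cdkn2a lies lowest, at 0.553 RPKM on average in control.

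Shares of a family inside each library do not depend on how libraries are scaled. Neither these shares nor the ratios below were corrected for the trend of fold changes with exon length. Of the length-normalized counts of the 6 CDK inhibitors, Cdkn1a made up 44.8% to 47.6% in control and 48.4% to 51.1% after neomycin. Cdkn1b made up 20.6% to 23.8% and 20.8% to 23.7%, and Cdkn2d 23.1% to 27.0% and 21.1% to 23.3%. The ranges of Cdkn1a lay apart, and those of Cdkn1b and Cdkn2d overlapped. Among the retinoblastoma genes, Rb1 made up 46.5% to 50.4% in control and 48.7% to 51.5% after neomycin, Rbl2 41.5% to 43.4% and 38.0% to 41.7%, and Rbl1 8.10% to 10.2% and 9.58% to 10.5%. Rb1 and Rbl2 thus held most of the family in both groups.

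The ratio of Ccnd1 to the summed CDK inhibitors was 0.364, 0.346 and 0.264 in the 3 control samples, in replicate order, and 0.269, 0.255 and 0.248 after neomycin. Control replicate 3 lay among the neomycin samples. The mean log2 ratio differed by -0.32 between neomycin and control (exact two-sided permutation test, p = 0.2; 3 samples against 3 cannot give a p under 0.1). The ratio of Rbl1 to the summed retinoblastoma family was 0.102, 0.0810 and 0.0902 in control and 0.1004, 0.0958 and 0.105 after neomycin, a difference of 0.15 in mean log2 ratio (exact two-sided permutation test, p = 0.3). Without control replicate 1 this difference was 0.23, and without control replicate 2 it was 0.067.

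**Figure D4:**
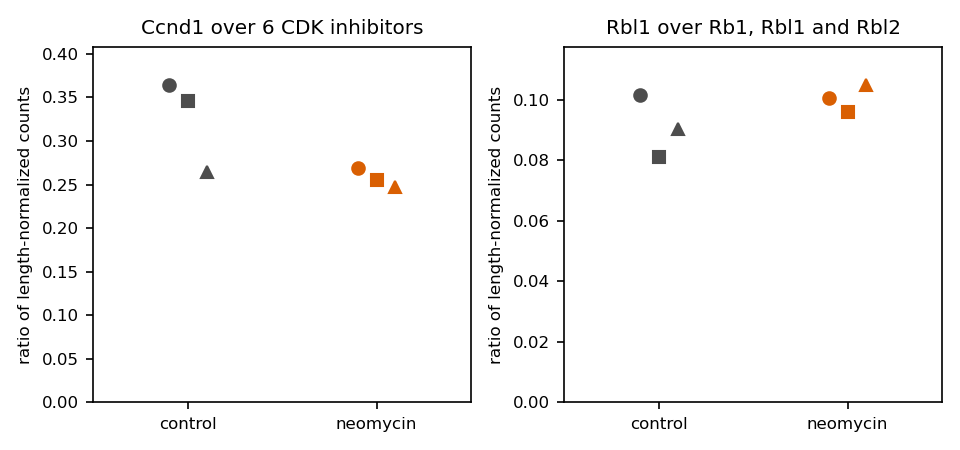
Both panels give ratios of length-normalized counts in each sample on an axis from 0, with gray for control, orange for neomycin and circles, squares and triangles for replicates 1, 2 and 3. Ratios of Ccnd1 to the 6 CDK inhibitors lay between 0.264 and 0.364 in control and between 0.248 and 0.269 after neomycin, and those of Rbl1 to its family overlapped.

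A list of 36 other genes of the G1 to S step held, among others, further cyclins, CDKs, E2F factors, DREAM subunits and SCF machinery, including that which degrades p27Kip1. All 36 were tested, and 5 rose, 7 fell and 24 did not pass, with a median log2 fold change of -0.07. The 12 that passed are 33.3% of the list, beside 29.0% of all genes tested. With an adjusted p under 0.05 and a fold change over 1.5 there were 5 of the 36, beside 8.84% of all genes. Without control replicate 1, control replicate 2, neomycin replicate 2 or neomycin replicate 3 the number that passed was 5, 2, 3 or 7. Of all genes, 3263 of 16145, 2567 of 16184, 2518 of 16177 and 3001 of 16221 passed in those fits.

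Cdkn1c, the third CIP/KIP inhibitor (p57Kip2) and an imprinted gene expressed from the maternal allele, was the gene of the list that rose past 1.5-fold. It had 252, 177 and 199 CPM in control and 372, 381 and 400.2 CPM after neomycin. Every neomycin sample lay well above the control samples. The log2 fold change was 0.88 (SE 0.11, edgeR adjusted p = 0.000209), and 0.74 with the correction for length. Added to the 6 members, Cdkn1c made up 38.9% to 50.3% of the length-normalized CDK inhibitor counts in control and 59.5% to 60.8% after neomycin. With Cdkn1c in the sum, the mean log2 ratio of Ccnd1 to the inhibitors differed by -0.81. Cdkn1c was added after it was seen to rise and Ccnd1 to fall, so this value restates both changes and has no test.

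Among the cyclins, Ccnd2, which encodes cyclin D2, fell beside Ccnd1. It had 111, 109 and 88.0 CPM in control and 62.6, 70.2 and 69.5 CPM after neomycin, with no overlap. Its log2 fold change was -0.61 (SE 0.09, edgeR adjusted p = 0.000741) and -0.38 with the correction for length (edgeR adjusted p = 0.00441). The third D-type cyclin, Ccnd3, had a log2 fold change of -0.08 (edgeR adjusted p = 0.493). Cdk4, a kinase partner of the D-type cyclins, rose by 0.26 on the log2 scale (edgeR adjusted p = 0.0220). Cdk6, the other such kinase, had means of 0.991 CPM in control and 0.629 CPM after neomycin (log2 fold change -0.65, edgeR adjusted p = 0.175). Ccne1, which encodes cyclin E1, had -0.41 (edgeR adjusted p = 0.0186). Ccnd3, Cdk4, Cdk6 and Ccne1 were chosen after their values were seen, and their values with the correction for length are not given here.

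Of the E2F factors, E2f7 and E2f8, atypical members that repress E2F targets late in S phase, fell past 1.5-fold. E2f7 had 2.54, 2.28 and 1.62 CPM in control and 1.15, 0.813 and 1.28 CPM after neomycin (log2 fold change -0.99, edgeR adjusted p = 0.0234). E2f8 had 4.64, 5.33 and 3.01 CPM in control and 2.79, 1.95 and 2.03 CPM after neomycin (log2 fold change -0.94, edgeR adjusted p = 0.0130). Mybl2, a partner of the DREAM core in dividing cells, fell by 0.71 on the log2 scale (edgeR adjusted p = 0.0460). None of these 3 had overlapping groups, and all were below 6 CPM in every sample. With the correction for length E2f7 and Mybl2 no longer passed (edgeR adjusted p = 0.0810 and 0.0757), and the adjusted p of E2f8 was 0.0187. For Mybl2 the adjusted p was 0.0507 with upper quartile scaling, and 0.0370 with both the correction for length and a replicate block. Leaving out control replicate 2 or neomycin replicate 2 also ended each of the 3 calls, as leaving out control replicate 1 did for E2f7 and Mybl2, and neomycin replicate 1 for Mybl2.

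**Figure D5:**
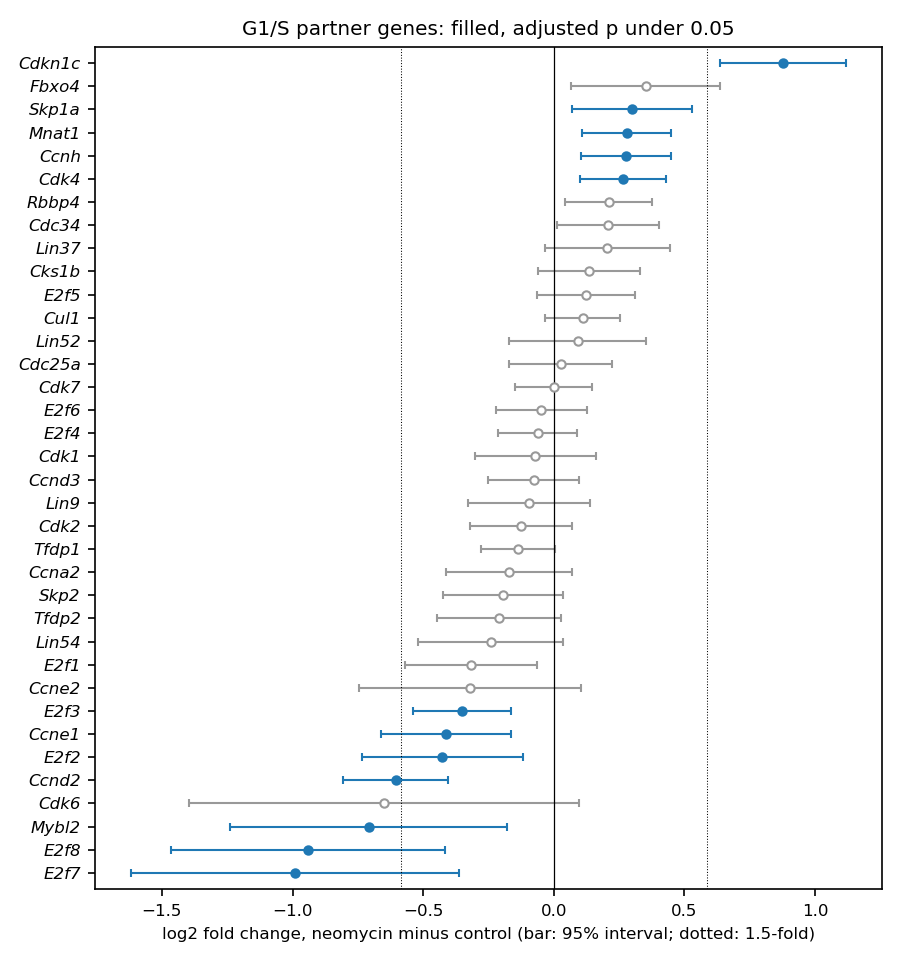
Points are log2 fold changes of neomycin against control for the 36 G1 to S genes, with 95% intervals, filled where the adjusted p-value was under 0.05, and dotted lines mark 1.5-fold. Cdkn1c stands alone past 1.5-fold on the right at 0.88. Past it on the left, Ccnd2, Mybl2, E2f8 and E2f7 are filled, and Cdk6, at -0.65, is not.

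Genes of S phase and mitosis, which follow release from the retinoblastoma brake, moved down where they passed. Of 30 such genes 10 fell, 0 rose and 20 did not pass, with a median log2 fold change of -0.17, beside 16.1% of all genes that fell and 12.9% that rose (edgeR). Bub1b, a spindle checkpoint kinase, fell by 0.62 on the log2 scale (edgeR adjusted p = 0.00119), and Cenpf, a kinetochore protein, by 0.65 (edgeR adjusted p = 0.0100), and these were past 1.5-fold. Cenpf did not pass with the correction for length (edgeR adjusted p = 0.0926), nor without control replicate 2 or neomycin replicate 2 (edgeR adjusted p = 0.0549 and 0.0553). With the correction for length 5 of the 30 passed, beside 3279 of all 15988 genes tested. Without control replicate 1, control replicate 2 or neomycin replicate 2 the number was 2, 1 or 1. Of all genes, 3263 of 16145, 2567 of 16184 and 2518 of 16177 passed in those fits. Of 20 other p53 target genes, set beside Cdkn1a because p53 also drives that gene, 2 rose, 8 fell and 10 did not pass. Their median log2 fold change was -0.24. The share that passed was 50%, beside 29.0% of all genes tested, of which 16.1% fell and 12.9% rose. Without control replicate 2, 4 of the 20 passed, beside 2567 of all 16184 genes. Eda2r, a death receptor, fell by 0.86 (edgeR adjusted p = 0.00888) and Ckap2, a spindle protein, by 0.62 (edgeR adjusted p = 0.00992); neither passed without control replicate 2 (adjusted p = 0.0505 and 0.0609).

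Transcripts that mark cell types also differed between the groups. The counts of each list stand beside 12.9% of all genes tested that rose and 16.1% that fell. Of 15 HC markers 14 fell, and their summed level was 867 to 995 CPM in control and 299 to 365 CPM after neomycin. Of 10 endothelial markers 7 fell and 0 rose, and the median of their log2 fold changes was -1.94. Cldn5, Tie1 and Pecam1 were at 9.46%, 14.1% and 15.2% of control. The endothelial sums, 312 to 354 and 298 to 351 CPM, were mostly Emcn, at 252 CPM in control and 273 CPM after neomycin (edgeR adjusted p = 0.329). Of 16 SC markers 3 rose and 5 fell, with sums of 6942 to 8475 and 9324 to 12166 CPM, and Tectb made up more of the sum than any other marker. Of 10 macrophage markers 5 rose and 0 fell, with sums of 94.1 to 124 and 135 to 168 CPM. Of 10 mesenchymal markers 2 rose and 3 fell, with sums of 6353 to 6975 and 6657 to 6888 CPM. Of 10 neuronal markers 1 rose and 4 fell, with sums of 204 to 293 and 192 to 209 CPM. Of 9 Schwann cell and glial markers tested, of 10 listed, 0 rose and 2 fell, with sums of 243 to 313 and 231 to 264 CPM. No marker in these lists was at 3 counts or fewer in every sample. The part of these shifts in the changes of Ccnd1, Rbl2, Cdkn2d and Cdkn1c was not tested.

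The genes whose log2 CPM followed those of Cdkn1b most closely over the 6 samples, among 10382 genes with a mean of at least 10 CPM, were Jak2, Znrf2 and Rbm25, with Pearson's r of 0.988, 0.979 and 0.976. Those closest to Ccnd1 were Wnt5a, Tgfbr3 and Sp1, with r of 0.999, 0.998 and 0.994. These correlations describe 6 points that share 2 groups and their libraries.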

How the data were processed

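The authors called bases with Casava 1.8, trimmed reads with trimmomatic 0.23, aligned them to UCSC mm10 with Hisat2 and counted them per gene with HTSeq; the deposited values are raw counts per gene symbol, without normalization. The strand setting is not given in the sources used here, so genes that overlap on opposite strands may have lost or gained reads. All 6 columns of counts were mapped to samples by title. Replicates differed by more than sampling noise (mean chi-square per gene 13.8 to 46.6), and nothing says that they came from separate litters, so p-values measure only the spread between these samples.

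Genes were kept by filterByExpr and library sizes adjusted by TMM, and neomycin was compared with control by the quasi-likelihood test of edgeR 4.0.16 in R 4.3.3, with Benjamini-Hochberg adjustment. Fold changes are neomycin minus control on the log2 scale, and intervals at 95% use the total degrees of freedom of that fit. RPKM were computed from TMM-scaled CPM and the union exon length of the GENCODE basic annotation of mm10, and coordinates come from the same release. Log2 CPM used a prior count of 2. DESeq2 1.42.0, limma-voom (limma 3.58.1), other scalings and filters, a replicate block, a correction for exon length (lowess, span 0.3, with a length for 99.2% of the genes tested) and each sample left out were tried as alternatives. The code was tested on simulated data. Figures were drawn with matplotlib 3.10.9.

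Cell type and pathway lists were written from general knowledge. The members and lists were chosen with earlier results of these data known. All members are named; of the other G1 to S, S phase and mitosis, and p53 target lists, those past 1.5-fold with an adjusted p under 0.05 are named, and further names are stated as chosen later. Likeness was given for the 3 genes of highest Pearson's r with Cdkn1b and with Ccnd1. Intervals cover the spread between samples, and counts of 3 or fewer were taken as the floor.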

Additional observations from a re-analysis of the deposited data

How the results depend on the processing

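Of the 10 members, Ccnd1, Rbl2 and Cdkn2d fell under DESeq2, limma-voom, both other scaling methods, library size alone, both other filters and the replicate block, with 3 members passing in each. The correction for length left 2 of them, without Rbl2, with or without the block. Of all 15988 genes tested, 3279 passed with that correction alone and 3927 with the block as well. With the fold change over 1.5, 0 members and 5 of the G1 to S genes remained. Leaving out 1 sample at a time gave between 0 and 3 members, 0 of them without control replicate 2, and between 2 and 16 G1 to S genes. The number of all genes that passed lay between 2518 and 5341 in those fits, against 4629, with 2567 without control replicate 2, 2518 without neomycin replicate 2 and 3001 without neomycin replicate 3. With library size alone 1349 genes were higher and 3200 lower, against 2058 and 2571. Of the 7 members that did not pass, Rb1 stayed below 0 in every fit and the other 6 turned in sign in at least 1: with library size alone Cdkn1a had -0.045 and Cdkn2c -0.058; with the correction for length Cdkn1a had -0.012, Cdkn1b 0.053, Cdkn2a -0.081, Cdkn2c -0.029 and Rbl1 0.055; and with the replicate block and that correction they had -0.013, 0.056, -0.14, -0.017 and 0.059. With 1 sample left out, Cdkn1a lay between -0.053 and 0.081, Cdkn1b between -0.10 and 0.022, Cdkn2a between -0.19 and 0.45, Cdkn2b between -0.33 and 0.076, Cdkn2c between -0.075 and 0.15, and Rbl1 between -0.13 and 0.032. The sample labels do not say whether samples of the same replicate number belong together. Deviations of same-numbered samples correlated at 0.165, 0.0264 and 0.0949, and 5 of 6 samples correlated best with their own number. With the replicate block 3 members, 16 G1 to S genes and 6014 of all genes passed, against 4629 of all genes without it. The log2 difference of the Ccnd1 ratio lay between -0.47 and -0.23 with 1 sample left out, and was -0.31 with exon lengths over all transcripts, which were added after the data were examined. That of the Rbl1 ratio lay between 0.067 and 0.23 with 1 sample left out. Cdkn2a had at most 59 reads in a library and varied between the neomycin samples, which limits what can be said of it.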
